A study of Mus musculus with 34 samples.

Results

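Livers of Rag1-/- mice carrying an inducible MYC transgene were compared 14 days after injection of an adenovirus with ARID1A (ad-ARID1A) or with Cre recombinase (ad-Cre). These were 6 of the 34 samples of the study, 3 for each virus, chosen because the submitters place them in a table of their own, and all 14074 genes of that table were examined. The other samples were tumors of mice with and without Arid1a loss, and of these only 12 FVB tumors enter below, as levels. They were MYC tumors labelled Arid1a wild type (4, age 55 days), Het (4, 70 days) and Homo (4, 100 days). Genotype and age cannot be told apart among them. The comparison addresses the question of what differs in MYC livers given ARID1A, in a study of what this gene does at different stages of liver cancer.

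Both groups were of FVB strain, lacked Rag1 and carried LAP-tTA and TRE-MYC, in which a liver-restricted driver (LAP) expresses the tetracycline transactivator (tTA) that turns on MYC once doxycycline is withdrawn. Arid1a was wild type (WT) in both, and the mice were about 42 days old. Mice without Rag1 form no mature T or B lymphocytes. The treated group received human ARID1A (hARID1A) and the control group received Cre, so added ARID1A and absence of Cre cannot be told apart. One label field calls the tissue frozen liver tumor and another calls it liver. The sample titles carry an N, where the titles of the tumor samples carry a T. The labels give neither the sex of the mice nor the hour of collection. The titles number the 3 libraries of each virus but do not say that each came from a separate mouse, and the p-values below therefore reflect the spread of these samples alone.

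ARID1A is the DNA-binding subunit of the BAF form of SWI/SNF, a complex that moves nucleosomes with energy from ATP. Several of the genes described below belong to the circadian clock, a loop in which the activators Bmal1 (gene Arntl) and Clock or Npas2 switch on the Per, Cry and Nr1d genes, whose products then shut the activators down. In liver this loop drives daily rhythms of the PAR bZIP factors Dbp, Tef and Hlf, which in turn act on genes of drug and lipid metabolism. Cytochrome P450 enzymes oxidize drugs, steroids and fatty acids, and peroxisome proliferator-activated receptor alpha (PPAR-alpha) is the fatty acid sensor that controls fat burning in hepatocytes.

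Depth, read from the size of the steps between low values, was 8.72 to 10.6 M reads per library. Values are log2 CPM (read counts scaled to equal library totals, on a log scale) with a floor at 0, and 390 to 585 genes were listed at 0 in a library. All 7 defining hepatocyte markers were listed in every library, among them Alb at 15.16 to 15.49. The table did not list Cd3e, Cd3g, Cd8a (T cells), Cd79a, Ms4a1 (B cells), Ncr1, Klrb1c (NK cells), S100a8, S100a9, Ly6g (neutrophils), Krt19, Krt7 or Epcam (biliary cells). Other genes of the wider lists for these cells were measured, 3 for T and NK cells, 2 for B and plasma cells, 2 for neutrophils and 7 for biliary and progenitor cells, among them Cd4 (2.24 to 3.08), Ighm (3.23 to 4.83), Sox9 (2.37 to 3.41) and Spp1 (3.02 to 5.14). The 4 defining macrophage, 3 endothelial and 3 stellate markers were listed. The Y-linked genes Ddx3y (6.81 to 6.88), Kdm5d (5.30 to 5.55), Eif2s3y (5.72 to 5.88) and Uty (5.74 to 6.0) were at like levels in all 6 libraries, and the X-inactivation RNA Xist was at 1.5, 2.18 and 2.85 after ad-ARID1A and 2.62, 2.78 and 3.55 after ad-Cre (-0.81 ± 0.37 SE, adjusted p = 0.404). A first principal component with 29.9% of the variance put the ad-ARID1A libraries (scores 30.8, 16.8 and 17.7) apart from the ad-Cre libraries (-14.3, -24.2 and -26.7). Mouse Arid1a was at 7.22, 6.97 and 6.79 after ad-ARID1A and 6.84, 6.86 and 6.83 after ad-Cre. The groups overlapped (log2 difference 0.15 ± 0.11 SE, limma adjusted p = 0.619), and the human ARID1A of the virus was not measured here, so its delivery was not checked.

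After ad-ARID1A 45 of 14074 genes changed at an adjusted p under 0.05, 39 of them higher and 6 lower. That is 0.320% of the genes tested, 0.277% rising and 0.0426% falling. Clock genes (Per3, Dbp, Tef), genes of the cytochrome P450 system (Cyp2b9, Cyp2a4, Por) and PPAR-alpha targets (Acaa1b, Aldh3a2, Vnn1) were among those that rose. The clock activator Npas2 was among those that fell. The largest fall was in Moxd1, which encodes a copper monooxygenase related to dopamine beta-hydroxylase. Small differences leaned upward: the median over all genes was 0.09, and the 3 ad-ARID1A libraries all lay above the 3 ad-Cre libraries for 1953 genes (13.9%) and all below for 489 (3.47%). With each library centred on its median the calls were 25 higher and 8 lower and the non-overlapping genes 1193 and 1076, and with quantile normalization 17 and 5 called and 1098 and 1089 not overlapping.

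**Figure D1:**
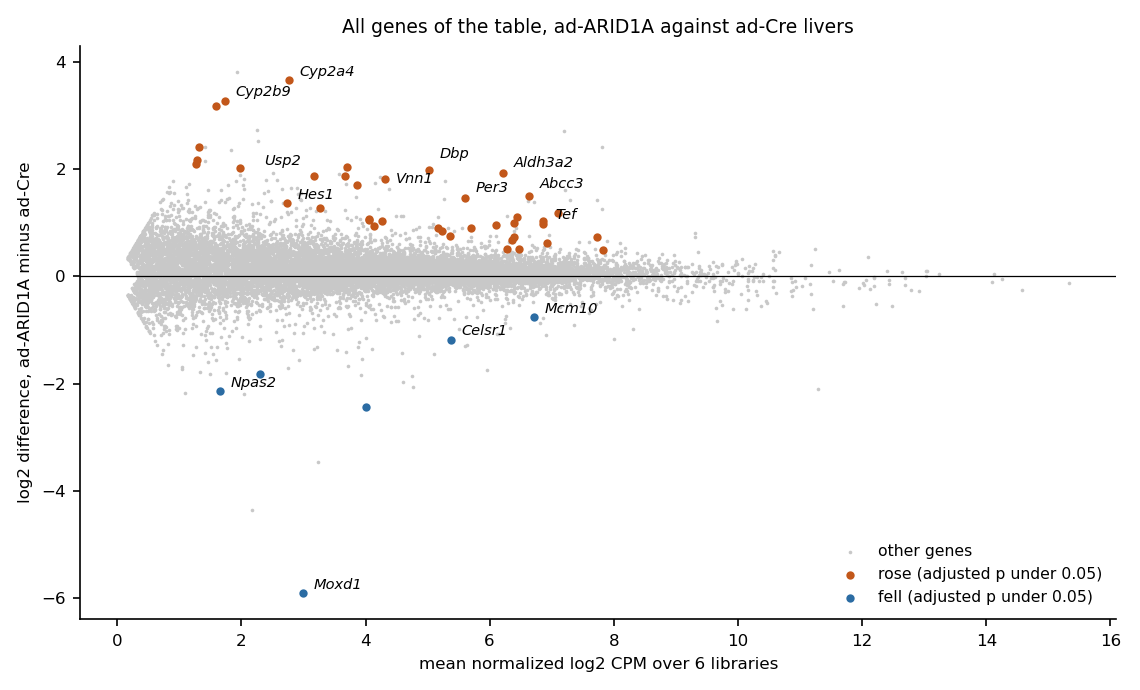
Each point is one of 14074 genes, with its mean log2 CPM over the 6 libraries on the x axis and the log2 difference (ad-ARID1A minus ad-Cre) on the y axis. The 39 genes that rose are orange and the 6 that fell are blue, and Moxd1 (-5.90) lies farthest from 0.

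The number of calls depended on each of the 6 libraries. Without ad-ARID1A library 1 no gene passed (limma, lowest adjusted p = 0.0671, with 1230 genes at an unadjusted p under 0.05). Without ad-ARID1A library 2 or 3 there were 7 and 19 calls, and without ad-Cre library 1, 2 or 3 there were 6, 15 and 8. Dbp, Tef, Per3, B4galnt1 and Gm3362 each passed in 5 of these 6 fits, and the other 40 genes in 0, 1 or 2 of them. With each gene's variance shrunk toward a common value in place of a trend with expression level, 1 gene passed by limma, while 1617 had an unadjusted p under 0.05.

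Among the 20 measured genes of the clock loop 3 rose and 1 fell, against 0.277% and 0.0426% of all genes. After ad-ARID1A 6 (30%) lay wholly higher and 3 (15%) wholly lower, against 13.9% and 3.47% of all genes. With centred libraries these were 5 and 5, against 1193 and 1076 of all 14074 genes. Over the 6 fits that left out a library 0 to 2 rose and none fell, with Per3 in 5 of them. The repressors Per3, Nr1d1 and Bhlhe40 were the ones that rose and the activator Npas2 the one that fell. The median difference of the list was 0.22, against 0.09 over all genes. All clock genes named here, and the lists and their members below, were chosen with earlier results of these data known. The shares of lists set against all genes are therefore descriptions.

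Per3, a period protein of the repressor arm (chromosome 4, 151003652 to 151044665, minus strand, GRCm38), was at 6.48, 6.39 and 6.14 after ad-ARID1A and at 4.77, 4.85 and 5.0 after ad-Cre. The gap between the groups was wider than the spread within either, with a log2 difference of 1.46 ± 0.12 SE (adjusted p = 0.00234). The difference was 1.39 without ad-ARID1A library 1 (adjusted p = 0.0671). The related Per2 (0.50, adjusted p = 0.313) and Per1 (0.30, adjusted p = 0.71) overlapped between the groups. Ad-ARID1A library 1 held the highest Per2 level (5.89) and the lowest Per1 level (4.68) of the 6.

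Nr1d1 (chromosome 11, 98767932 to 98775333, minus strand) encodes Rev-erb alpha, the nuclear receptor that represses Arntl and Npas2. Its level was 7.32, 7.68 and 7.05 after ad-ARID1A and 6.26, 6.36 and 6.52 after ad-Cre, a difference of 0.97 ± 0.15 SE (adjusted p = 0.0313). The gene overlaps Thra on the opposite strand, and Thra had a difference of 0.35 with overlapping groups (adjusted p = 0.438). Nr1d2, its paralog Rev-erb beta, was at 7.12, 7.04 and 6.75 against 6.41, 6.28 and 6.45. The Nr1d2 groups did not overlap, but the difference of 0.59 ± 0.11 SE missed the threshold (adjusted p = 0.0618). Nr1d1 passed in 1 of the 6 fits that left out a library, with adjusted p-values from 0.0389 to 0.231.

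Bhlhe40 (chromosome 6, 108660629 to 108666925) encodes Dec1, which competes with the activators for E-boxes. It was at 6.80, 7.02 and 7.18 after ad-ARID1A and 5.84, 6.19 and 5.63 after ad-Cre, a difference of 1.11 ± 0.15 SE (adjusted p = 0.0246), with adjusted p-values from 0.0217 to 0.166 over the 6 fits without a library. Its paralog Bhlhe41 was at 2.50, 1.0 and 0.41 against 0.41, 0 and 0, with 1 library of each group level (1.17, adjusted p = 0.39). Ciart, a further repressor of the loop, was at 2.01, 2.61 and 2.97 against 0.41, 1.59 and 1.20. Those groups did not overlap, with a difference of 1.46 ± 0.37 SE (adjusted p = 0.159).

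In the activator arm Npas2 fell, and Arntl lay lower without passing. Npas2 (chromosome 1, 39193731 to 39363236) was at 0, 0.63 and 1.14 after ad-ARID1A and at 2.49, 3.19 and 2.49 after ad-Cre. The difference of -2.13 ± 0.36 SE passed narrowly (adjusted p = 0.0486), and in none of the 6 fits without a library (0.0888 to 0.233). Its ad-ARID1A levels are at or near the floor, which understates a fall. Arntl was at 3.11, 2.98 and 3.79 against 4.82, 4.36 and 4.35, a difference of -1.22 ± 0.23 SE with no overlap that missed the threshold (adjusted p = 0.0671). Clock itself had a difference of -0.17 (adjusted p = 0.459), and Cry1, a repressor, of -0.52 without overlap (adjusted p = 0.328). The second cryptochrome, Cry2, lay higher in all 3 ad-ARID1A libraries by 0.25 (adjusted p = 0.39). Rora, Csnk1d, Csnk1e, Fbxl21 and Timeless had overlapping groups and differences from -0.19 (Fbxl21) to 0.21 (Csnk1e).

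Among the 18 measured clock output genes 4 rose and none fell by limma (7 higher and 3 lower at an unadjusted p under 0.05). Over all genes 0.277% rose and 0.0426% fell. Of the 18, 8 (44.4%) lay wholly higher and 2 (11.1%) wholly lower, against 13.9% and 3.47% of all genes. With centred libraries 7 lay wholly higher and 4 lower. The list's median difference was 0.22, and 0 to 3 rose in the fits without a library. The 3 PAR bZIP factors, which bind D-box sequences as partners in daily gene control, all rose. Dbp (chromosome 7, 45705088 to 45710203) was at 6.16, 6.26 and 5.63 after ad-ARID1A and at 4.16, 3.91 and 4.06 after ad-Cre, a difference of 1.97 ± 0.16 SE (adjusted p = 0.00234). Tef (chromosome 15, 81802421 to 81826863) was at 7.36, 7.34 and 7.41 against 6.36, 6.46 and 6.21, a difference of 1.03 ± 0.09 SE (adjusted p = 0.00234). For both genes the gap between the groups was wider than the spread within either. Hlf was at 6.50, 6.55 and 6.57 against 6.0, 6.0 and 6.08, a difference of 0.51 ± 0.08 SE (adjusted p = 0.0376). Without ad-ARID1A library 1 the differences were 1.90 for Dbp and 1.03 for Tef (adjusted p = 0.0671 for both) and 0.53 for Hlf (adjusted p = 0.181). Dbp overlaps Sphk2 on the opposite strand, and Sphk2 had a difference of -0.05.

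Usp2 encodes a deubiquitinase with a strong daily rhythm in liver. It was at 4.20, 3.93 and 4.20 after ad-ARID1A and at 2.59, 1.55 and 2.55 after ad-Cre, a difference of 1.88 ± 0.28 SE (adjusted p = 0.0313). It passed in 1 of the 6 fits without a library, with 1.84 and adjusted p = 0.231 when ad-ARID1A library 1 was left out. Of the outputs that did not pass, the cell cycle kinase Wee1 was at 4.30, 3.8 and 3.09 against 2.80, 1.59 and 2.16 (difference 1.55, adjusted p = 0.14). Gys2, the liver glycogen synthase (0.51), Coq10b (0.50) and Nampt, the NAD salvage enzyme (0.17), also lay wholly higher. Alas1, the first enzyme of heme synthesis, lay wholly lower (-0.37, adjusted p = 0.225), as did Elovl3, a fatty acid elongase, at 5.95, 6.34 and 6.86 against 7.53, 7.27 and 6.96 (-0.87, adjusted p = 0.15). Nfil3, the repressor that opposes Dbp at D-boxes, had a difference of -0.02 with overlapping groups.

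**Figure D2:**
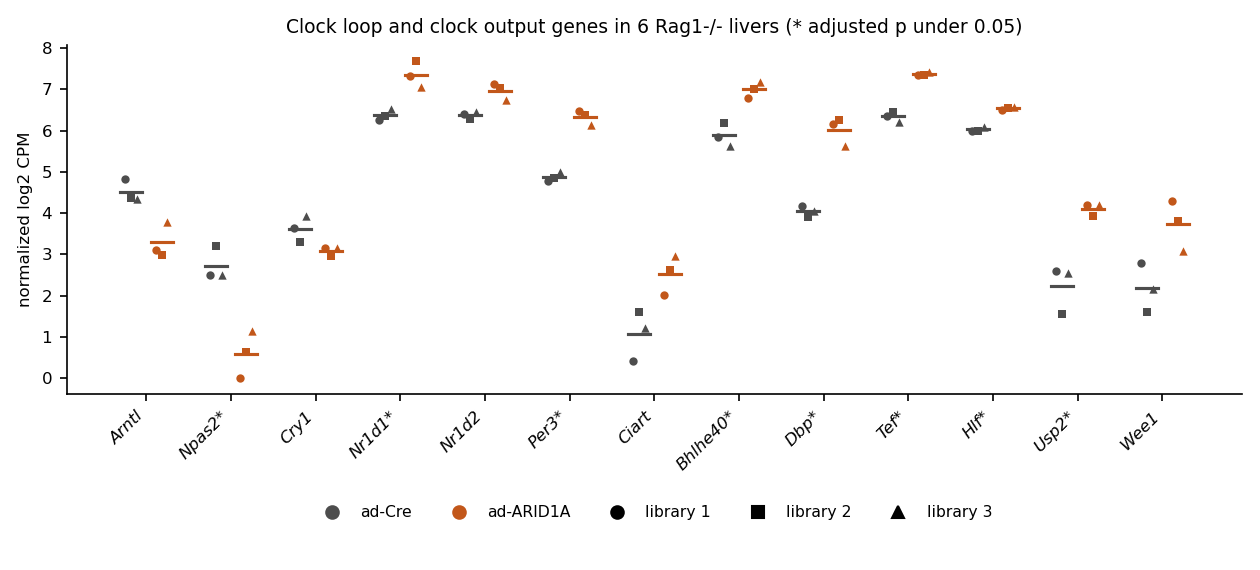
Normalized log2 CPM (y axis) of 13 clock genes in the 3 ad-Cre (grey) and 3 ad-ARID1A (orange) livers, with a bar at each group's mean and a symbol for each library. The genes were picked from the clock loop and output members whose groups did not overlap. Arntl, Npas2, Cry1 sit lower after ad-ARID1A and the other 10 genes higher, and an asterisk marks the 8 genes that passed. The lack of overlap follows from the choice. Members with overlapping groups are not drawn, nor are Cry2, Gys2, Coq10b and Nampt (wholly higher) or Alas1 and Elovl3 (wholly lower).

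Promoters of 30 clock loop and output genes matched the RefSeq promoter table (GRCm38.p6, 41 promoters), and the 250 bases before each start were searched on both strands. The E-box CACGTG, which the activators bind, was in 9 of the 41 (22%) and in 6.02% of all 32851 promoters. The D-box TTANGTAA, which Dbp, Tef and Hlf bind, was in 3 of 41 (7.32%) and in 2.06% of all. AGGTCA, the core that Rev-erb and ROR receptors read, was in 6 of 41 (14.6%) and in 14% of all. Promoters of the genes that changed, 30 promoters of 27 genes, held the E-box in 3, the D-box in 1 and AGGTCA in 1. A match is a description of the letters and not evidence of binding, and promoters of one gene can overlap. Among the clock genes, E-boxes were also found for Bhlhe41, Coq10b, Cry1, Lonrf3, Per1 and Tspan4, and D-boxes for Coq10b and Timeless. None of these genes passed, and Cry1 (-0.52) and Timeless (-0.06) had negative differences. The 3 sequences below were picked because their genes had large differences and carry a motif that a clock factor reads. Ciart among them did not pass. Motifs are in capitals, written 5′ to 3′ toward the start site. Per3 holds 2 D-boxes, whose first letters lie 205 and 158 bases before the start. Tef holds an E-box at 127 bases and Ciart has E-boxes at 116, 58 and 44 bases. The Tef stretch shown lies inside the gene span given above, so the start it precedes is not the gene's first base. A second Tef promoter, not shown, holds an E-box at 138 bases.
Per3 (chr4:151044666-151044915, minus strand): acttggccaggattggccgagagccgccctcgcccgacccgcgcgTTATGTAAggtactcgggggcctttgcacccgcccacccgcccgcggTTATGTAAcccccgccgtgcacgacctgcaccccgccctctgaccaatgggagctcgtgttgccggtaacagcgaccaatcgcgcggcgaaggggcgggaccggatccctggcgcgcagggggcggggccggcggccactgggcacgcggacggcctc
Tef (chr15:81802423-81802672, plus strand): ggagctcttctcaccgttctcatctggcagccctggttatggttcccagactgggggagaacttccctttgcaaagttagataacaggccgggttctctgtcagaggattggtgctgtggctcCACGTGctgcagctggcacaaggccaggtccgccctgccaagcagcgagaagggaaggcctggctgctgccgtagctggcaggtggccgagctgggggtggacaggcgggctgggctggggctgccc
Ciart (chr3:95882229-95882478, minus strand): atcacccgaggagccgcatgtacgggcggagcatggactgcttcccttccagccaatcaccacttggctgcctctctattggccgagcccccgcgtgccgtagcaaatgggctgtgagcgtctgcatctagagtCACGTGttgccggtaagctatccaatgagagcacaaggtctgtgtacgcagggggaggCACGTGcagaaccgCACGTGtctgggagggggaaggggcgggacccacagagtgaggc

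In the cytochrome P450 list 4 of 55 measured genes rose and none fell by limma (15 higher and 4 lower at an unadjusted p under 0.05). Over all genes 0.277% rose and 0.0426% fell. Of the 55, 15 (27.3%) lay wholly higher and 3 (5.45%) wholly lower, against 13.9% and 3.47% of all genes. With centred libraries 10 lay wholly higher and 3 lower. The median difference of the list was 0.20, and 0.11 after quantile normalization, when Cyp2b9 alone still passed, and 0 to 3 members rose in the fits without a library. Cyp2b9 and Cyp2a4 belong to steroid and drug hydroxylase families on chromosome 7 that are known for higher levels in female than in male mouse liver. Cyp2b9 (26173411 to 26210661) was at 3.61, 3.83 and 2.68 after ad-ARID1A and at 0, 0.29 and 0 after ad-Cre, a difference of 3.28 ± 0.34 SE (adjusted p = 0.00589). Cyp2a4 (26307169 to 26315088) was at 5.47, 4.43 and 3.91 against 0, 0.59 and 2.23, a difference of 3.66 ± 0.55 SE (adjusted p = 0.0313). Cyp2a22 was at 3.52, 2.73 and 2.73 against 0.80, 1.35 and 0.78, a difference of 2.02 ± 0.31 SE (adjusted p = 0.0313). Cyp2b9 was at or near the floor in all 3 ad-Cre libraries, where the scale understates change and the narrow spread can help a gene pass. Cyp2a4 varied more, with ad-Cre library 3 well above the floor. Cyp2a4 shares most of its sequence with Cyp2a5, so reads may be split between them. Cyp2a5 was at 7.32, 6.85 and 6.36 against 5.18, 5.89 and 6.07, without overlap (1.13, adjusted p = 0.135).

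Por, the reductase that passes electrons to all microsomal P450 enzymes, was at 7.31, 7.34 and 7.06 after ad-ARID1A and 6.55, 6.75 and 6.55 after ad-Cre. The rise of 0.62 ± 0.10 SE passed (adjusted p = 0.0465), but in none of the 6 fits without a library (0.066 to 0.249). Without ad-ARID1A library 1 the differences were 3.16 for Cyp2b9 (adjusted p = 0.101), 3.23 for Cyp2a4 (0.232) and 1.75 for Cyp2a22 (0.191). The abundant ethanol and drug oxidase Cyp2e1 was at 11.63, 11.53 and 11.33 against 10.81, 11.25 and 10.92 (0.50, adjusted p = 0.178), and Cyp3a11 overlapped (0.48, adjusted p = 0.438). Cyp2c70, which makes muricholic acids, was lower at 9.47, 9.57 and 9.42 against 9.90, 10.02 and 10.12 (-0.53, adjusted p = 0.0546). Cyp2c67 was lower by -0.60 (adjusted p = 0.0806) and Cyp2c38 higher by 1.78 (adjusted p = 0.114), both without overlap.

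Of 29 measured growth hormone and sex-biased hepatocyte genes, Cyp2b9 and Cyp2a4 were the 2 that rose, and 6 (20.7%) lay wholly higher and 3 (10.3%) wholly lower, against 13.9% and 3.47% of all genes. The counts were 3 and 5 with centred libraries and 5 and 4 with quantile normalization. The genes known for male-biased expression did not move one way: Elovl3 (-0.87) and Hsd3b5 (-0.29) were lower and Cyp4a12a (0.35) and Cyp2d9 (0.26) higher, each without overlap and none past the threshold. Whether genes known for female-biased expression shifted as a class was not tested. Serpina1e, an alpha-1-antitrypsin gene, was at 7.58 in ad-ARID1A library 1 and between 11.42 and 12.82 in the other 5 libraries.

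All 37 genes of fatty acid oxidation and PPAR targets had a positive difference (35 with centred libraries and 36 with quantile normalization). Over all 14074 genes 9366 were positive, and 7324 and 6938 with the same rescalings. Of the 37, 4 rose and none fell by limma (21 and 0 at an unadjusted p under 0.05), and 15 (40.5%) lay wholly higher against none lower. Over all genes 0.277% rose and 0.0426% fell, with 13.9% wholly higher and 3.47% wholly lower. With centred libraries 12 lay wholly higher, against 1193 of all genes, and with quantile normalization 14, against 1098. The median difference was 0.36, and 0.32 after quantile normalization, when the median of all genes was -0.003. This list, like the others, was chosen with earlier results of these data known, so its shares are a description. Acaa1b, a peroxisomal thiolase of beta-oxidation, was at 7.92, 7.64 and 7.5 after ad-ARID1A and 6.55, 6.73 and 6.26 after ad-Cre (1.17 ± 0.14 SE, adjusted p = 0.0133). Its close copy Acaa1a was at 6.90, 6.60 and 6.59 against 5.95, 6.11 and 5.98 (0.68 ± 0.11 SE, adjusted p = 0.0334), and the copies may share reads. Aldh3a2, a fatty aldehyde dehydrogenase, was at 7.52, 7.39 and 6.64 against 5.61, 5.33 and 4.82 (1.93 ± 0.24 SE, adjusted p = 0.0187). Vnn1, a pantetheinase and a sensitive PPAR-alpha target, was at 5.48, 5.31 and 4.88 against 3.02, 4.11 and 3.08 (1.82 ± 0.28 SE, adjusted p = 0.0313). For each of the 4 genes the groups were clear of each other, and 0 to 2 of the list rose in the fits without a library. Without ad-ARID1A library 1 the differences were 1.06 for Acaa1b (adjusted p = 0.111), 0.58 for Acaa1a (0.175), 1.76 for Aldh3a2 (0.175) and 1.69 for Vnn1 (0.249).

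Below the threshold the same list held small, even differences in core enzymes. Hadh, a mitochondrial dehydrogenase of beta-oxidation, was at 7.82, 7.75 and 7.70 against 7.40, 7.42 and 7.41 (0.35, adjusted p = 0.114). Acadm (0.38) and Acadl (0.32), acyl-CoA dehydrogenases of the same pathway, also lay wholly higher. Cd36, the fatty acid transporter, was at 6.21, 6.20 and 5.56 against 4.78, 3.97 and 4.90 (1.44 ± 0.25 SE, adjusted p = 0.0546). The omega-hydroxylase Cyp4a14 was at 6.68, 2.11 and 2.71 against 0, 0.05 and 0 (adjusted p = 0.152), and Cyp4a10 at 5.86, 2.55 and 2.41 against 0, 2.66 and 0 (adjusted p = 0.288). For both genes ad-ARID1A library 1 stood far above the rest. Ppara itself had a difference of 0.38 with overlapping groups (adjusted p = 0.339).

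**Figure D3:**
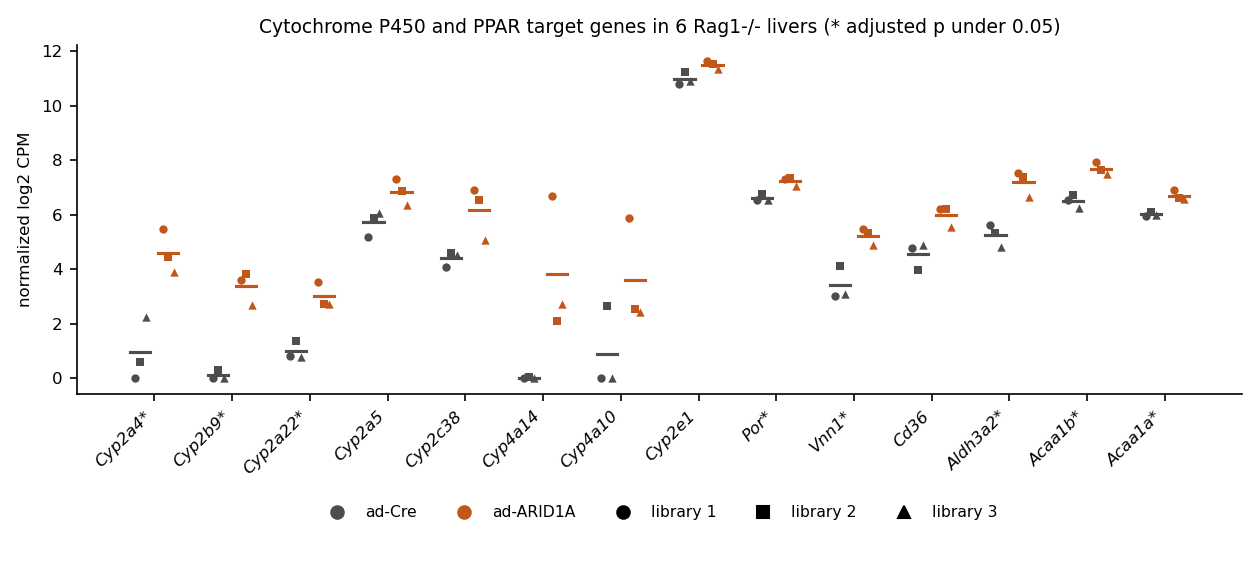
Normalized log2 CPM (y axis) of 14 cytochrome P450 and PPAR target genes in each liver, ad-Cre in grey and ad-ARID1A in orange, with bars at group means and asterisks on the 8 genes that passed. Cyp2b9 is at 0 to 0.29 in ad-Cre and 2.68 to 3.83 in ad-ARID1A livers, and Cyp4a14 and Cyp4a10 show 1 ad-ARID1A library (circle) far above the others.

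In conjugation and transport, Abcc3, a pump that exports bile acids and glucuronides to blood, was at 7.76, 7.14 and 7.24 after ad-ARID1A and 6.05, 6.19 and 5.43 after ad-Cre. It rose by 1.49 ± 0.21 SE (adjusted p = 0.0265), the only one of 28 measured bile acid genes to pass, with 5 (17.9%, against 13.9% of all genes) wholly higher and 1 wholly lower. With centred libraries 4 lay wholly higher and 4 lower. When ad-ARID1A library 1 was left out its difference was 1.30 (adjusted p = 0.181). The phospholipid pump Abcb4 (0.61, adjusted p = 0.0907) and the bile acid receptor gene Nr1h4 (0.40, adjusted p = 0.142) lay wholly higher without passing. The glucuronosyltransferases Ugt1a8 (1.70 ± 0.19 SE, adjusted p = 0.0132) and Ugt1a5 (1.03 ± 0.14 SE, adjusted p = 0.0257) rose, as did the pseudogenes Gm15371, Gm15372 and Gm15374 of the same stretch of chromosome 1. These entries lie in the Ugt1a locus, whose members share exons, so the 5 calls may count the same reads and are uncertain as to which member changed.

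Several single genes that rose stand outside these groups. B4galnt1, a ganglioside synthase, was at 6.61, 6.60 and 6.54 after ad-ARID1A and 5.52, 5.67 and 5.67 after ad-Cre (0.96 ± 0.09 SE, adjusted p = 0.00239). It overlaps Slc26a10 on the other strand, which had a difference of 0.83 (adjusted p = 0.303). G0s2, an inhibitor of the lipase ATGL, was at 4.58, 5.0 and 4.55 against 2.30, 3.41 and 2.33 (2.03 ± 0.29 SE, adjusted p = 0.0277). Ctse, the protease cathepsin E, was at 5.07, 4.74 and 4.01 against 2.92, 3.0 and 2.30 (1.87 ± 0.28 SE, adjusted p = 0.0313). Sema5b, a semaphorin guidance protein, was at 2.82, 1.95 and 2.18 against 0, 0.68 and 0 (adjusted p = 0.0486). Hes1, a repressor downstream of Notch (1.37), and Txnip, a glucose-responsive inhibitor of thioredoxin (0.75), rose as well, chosen for mention after their values were seen. The antisense RNA 4732463B04Rik (2.41, adjusted p = 0.0417) overlaps Acot3 and Acot4, and without known strand its reads cannot be told from theirs. A second antisense RNA, BB365896 (2.17), and the processed pseudogene Gm3362 also rose, the latter at 3.09, 2.83 and 3.58 against a listed 0 in all 3 ad-Cre libraries (adjusted p = 0.00239). The other 8 genes that rose, Ddah1, Paqr7, Inhbe, Lrp4, Ces1d, Ermp1, Setd1b and Slc17a2, had differences from 0.49 (Slc17a2) to 1.0 (Ddah1). Reads of a pseudogene may come from its parent gene. In fits without ad-ARID1A library 1 the adjusted p was 0.0671 for B4galnt1 and Gm3362 and 0.191 for G0s2, 0.231 for Ctse, 0.233 for Sema5b, 0.217 for 4732463B04Rik and 0.184 for BB365896.

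Of the 6 genes that fell, Moxd1 (chromosome 10, 24223517 to 24302790) had the largest difference. It was at 0, 0 and 0.14 after ad-ARID1A and at 6.96, 3.24 and 7.64 after ad-Cre (-5.90 ± 0.89 SE, adjusted p = 0.0313). The ad-Cre livers differed widely among themselves, and all 3 were far above the ad-ARID1A livers. Mcm10, a factor for the start of DNA replication, was at 6.36, 6.44 and 6.20 against 7.05, 7.08 and 7.13 (-0.75 ± 0.09 SE, adjusted p = 0.0133). Celsr1, a cadherin of planar cell polarity, was at 4.80, 4.43 and 5.13 against 5.80, 5.94 and 6.15 (-1.18 ± 0.17 SE, adjusted p = 0.0307). The pseudogenes Gm20121 (-2.43, adjusted p = 0.0307) and Gm7631 (-1.82, adjusted p = 0.0313) also fell. In the fit without ad-ARID1A library 1 the adjusted p was 0.249 for Moxd1, 0.106 for Mcm10 and Gm20121, 0.21 for Celsr1 and 0.149 for Gm7631. Of the 50 measured cell cycle genes none passed by limma (3 higher and 1 lower at an unadjusted p under 0.05), and 3 lay wholly higher (6%, below the 13.9% of all genes) and none lower. Their median was 0.31, and 0.19 after quantile normalization.

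In the list of interferon response genes, which cells switch on against viruses, 38 of 40 genes had a positive difference (37 with either rescaling). Over all 14074 genes 9366 were positive, and 7324 and 6938 with centred libraries and quantile normalization. Of the 40, 11 (27.5%) lay wholly higher and none lower, against 13.9% and 3.47% of all genes. With centred libraries 7 lay wholly higher, against 1193 of all genes, and with quantile normalization 8, against 1098. The median of the list was 0.39. Irf1, a transcription factor of the interferon response, was the one that rose, at 4.37, 4.68 and 4.69 against 3.57, 3.50 and 3.49 (1.06 ± 0.14 SE, adjusted p = 0.0246). It stood 1.17 higher without ad-ARID1A library 1 (adjusted p = 0.101), and it overlaps Gm17334 on the opposite strand. Mx2 (0.76), Usp18 (0.67), Ifit1 (0.89) and Igtp (0.38) lay wholly higher with adjusted p-values from 0.159 to 0.23.

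In the acute phase list, secreted liver proteins of systemic inflammation, no gene of 35 passed by limma (2 higher and 10 lower at an unadjusted p under 0.05). Of the 35, 11 (31.4%) lay wholly lower and none higher, against 3.47% and 13.9% of all genes, with a list median of -0.27. Serum amyloid Saa1 was at 4.58, 4.81 and 5.84 after ad-ARID1A and 6.41, 6.17 and 7.90 after ad-Cre (-1.75, adjusted p = 0.152). Saa2 was at 3.14, 3.62 and 4.44 against 5.31, 4.58 and 7.51 (-2.07, adjusted p = 0.219). Ad-Cre library 3 was the highest for both. The fibrinogen chains were lower by about the same amount, Fgg by -0.56, Fga by -0.56 and Fgb by -0.51 (adjusted p from 0.122 to 0.174), each without overlap. Haptoglobin (Hp, -0.49) and Orm1 (-0.52) were also lower in all 3 libraries. The summed level of the list was 29670 to 31810 CPM after ad-ARID1A and 35070 to 40890 CPM after ad-Cre.

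Markers of other liver cells were counted in the same way, against 13.9% of all genes wholly higher and 3.47% wholly lower. With centred libraries 1193 of all 14074 genes lay wholly higher, and 1098 with quantile normalization. Of 17 endothelial markers 9 (52.9%) lay wholly higher after ad-ARID1A (4 with either rescaling) and none lower. Their median was 0.29, with a summed level of 876.6 to 963.5 CPM against 741.5 to 851.1 CPM. Pecam1, the junction protein CD31, was at 4.65, 4.71 and 4.66 against 4.24, 4.24 and 4.38 (0.39, adjusted p = 0.212). Of 18 stellate cell and fibroblast markers 5 (27.8%) lay wholly higher (4 with either rescaling). The median was 0.48, with sums of 723.6 to 832.7 CPM against 445.7 to 748.9 CPM. Dcn, the proteoglycan decorin (0.45), and Hgf, hepatocyte growth factor (0.52), were among the 5. Of 18 macrophage markers 1 (5.56%, below the share of all genes) lay wholly higher and 1 (5.56%) lower, with a median of -0.06. The lower marker was the scavenger receptor Marco (0, 0.53 and 1.58 against 2.30, 2.18 and 1.92). None of these markers passed by limma, although 9 endothelial and 8 stellate markers were higher and 1 macrophage marker lower at an unadjusted p under 0.05. The part of these cells in the genes that changed was not tested. In bulk tissue a change in cell number and a change in RNA per cell cannot be told apart.

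Of 4 genes that the study followed, none passed by limma (1 higher at an unadjusted p under 0.05). Mat1a, the hepatocyte methionine adenosyltransferase, was at 10.97, 10.93 and 10.48 after ad-ARID1A and 10.37, 10.60 and 10.27 after ad-Cre (0.38, adjusted p = 0.333). Emilin1, an elastic fiber protein (0.28), the interleukin-1 receptor Il1r1 (-0.33) and the acute phase protein Lcn2 (-0.40) had overlapping groups. Mouse Myc was at 3.88, 2.66 and 2.41 against 5.0, 3.93 and 4.22. The groups did not overlap, and the difference of -1.40 ± 0.38 SE missed the threshold (adjusted p = 0.175). Whether reads of the MYC transgene enter these values was not checked, so they are not a measure of its level. In the MYC and MAX network 4 of 12 genes (33.3%, against 13.9% of all genes) lay wholly higher and 1 (8.33%, against 3.47%) lower. With centred libraries these were 3 and 1. The MYC antagonists Mnt (0.71, adjusted p = 0.159) and Mga (0.37, adjusted p = 0.152) were among the 4. No SWI/SNF subunit of 25 passed by limma (1 higher and 1 lower at an unadjusted p under 0.05), with a median of 0.02. Of these, 3 (12%, against 13.9% of all genes) lay wholly higher and 1 lower, and 0 and 2 with centred or quantile-normalized libraries. The trefoil peptide Tff3 of the tumor marker list was listed at 0 in all 3 ad-ARID1A libraries and at 2.78, 1.35 and 2.40 after ad-Cre (adjusted p = 0.056). Afp was at 3.62 to 4.10 over the 6 libraries, and the imprinted RNA H19 at 2.61 to 4.94 after ad-ARID1A and 0 to 6.65 after ad-Cre.

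In the periportal list Sds, serine dehydratase, was at 5.50, 6.06 and 6.0 against 6.65, 6.78 and 6.51 (-0.79, adjusted p = 0.0618). Igfbp1, a fasting-induced binding protein, was at 3.07, 4.14 and 4.38 against 4.96, 5.77 and 5.17 (-1.44, adjusted p = 0.119). Nfe2l2, the gene of the antioxidant regulator NRF2, was at 6.83, 6.62 and 6.43 against 6.09, 5.86 and 6.0 (0.64, adjusted p = 0.0547). In its list 3 of 36 glutathione and antioxidant genes lay wholly higher (8.33%, below the 13.9% of all genes) and none lower. Junb, an AP-1 subunit, lay wholly higher by 0.89 (adjusted p = 0.0784). Glucocorticoid targets had a median of -0.35, with 2 of 14 wholly lower (14.3%, against 3.47% of all genes) and none higher. Ad-ARID1A library 1 held the lowest level of Tat (9.37) and Ddit4 (1.71), and without it the list's median was -0.16.

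**Figure D4:**
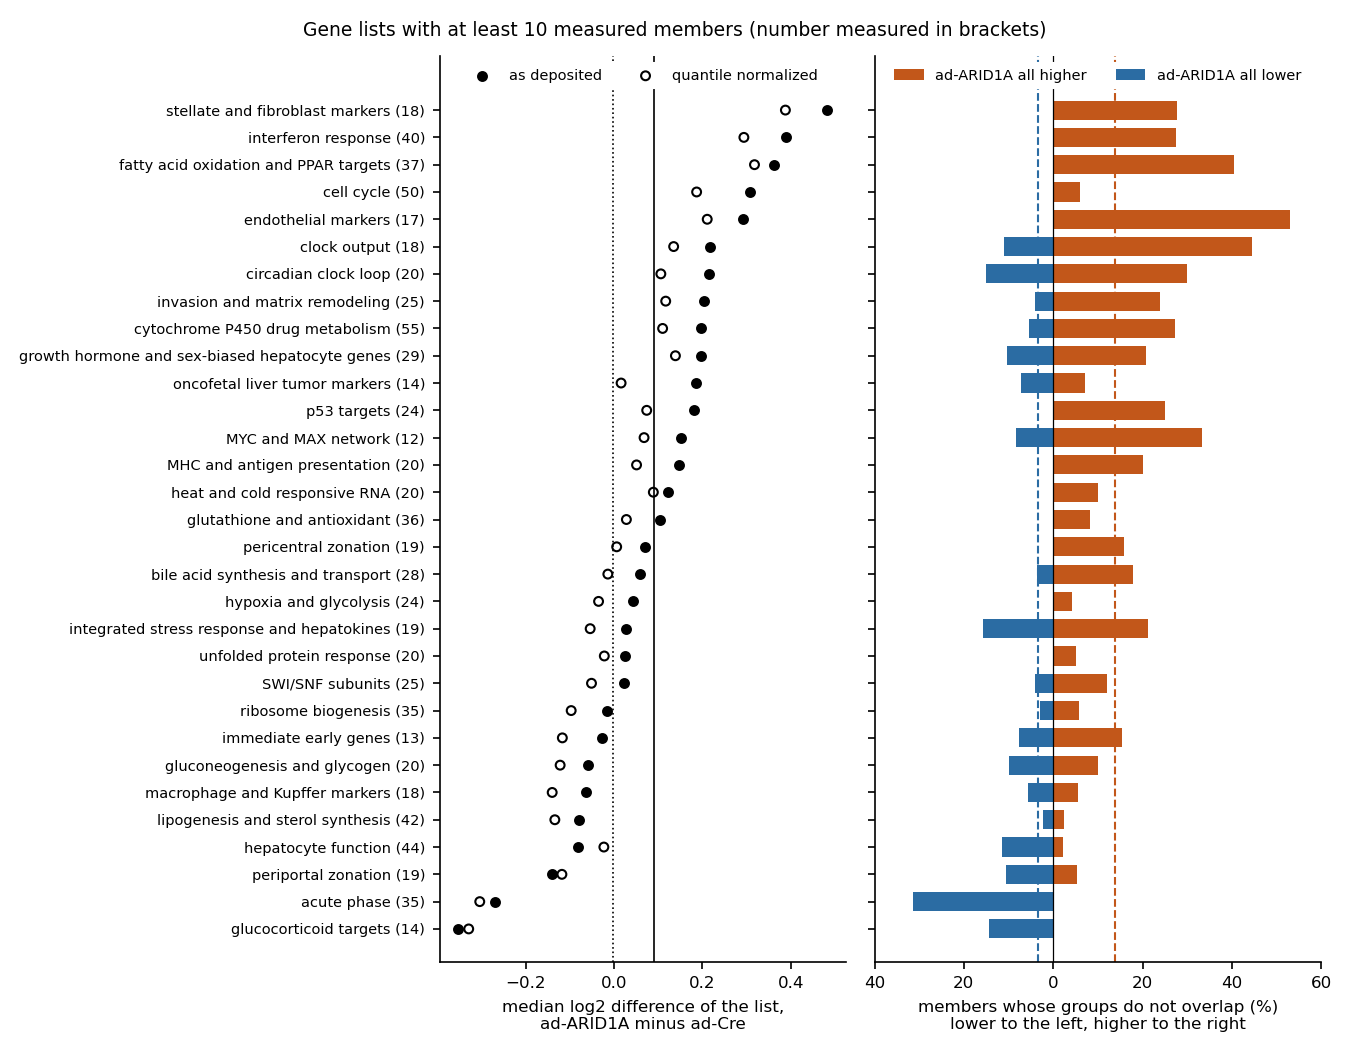
Left, the median log2 difference (ad-ARID1A minus ad-Cre) of each list with at least 10 measured members, as deposited (filled) and after quantile normalization (open), with the medians of all genes as vertical lines at 0.09 (solid) and -0.003 (dotted). Right, the share of each list's members whose groups do not overlap, with dashed lines at 13.9% and 3.47% for all genes, where endothelial markers (52.9%), clock outputs (44.4%) and PPAR targets (40.5%) reach farthest to the higher side and the acute phase list (31.4%) to the lower.

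Over the 6 libraries, the genes whose values were most like those of Dbp among 10684 genes whose mean log2 CPM reached 2 were Ppm1g, Hist2h2be, Ogt, Srp14 and Fcgrt (Pearson r from 0.9897 to 0.9944). For Arntl they were Zswim4, Ndufs3, Ints9, Rpl8 and Cbs (0.972 to 0.9944). With 6 points in 2 groups many genes reach such values, none of these 10 genes passed the test, and the likeness is a description.

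The table of 12 FVB tumors, normalized separately and so not tested against these livers, listed 35 of the 39 genes that rose and 2 of the 6 that fell. There Dbp was at 2.22 to 3.27, Per3 at 3.77 to 4.82 and Nr1d1 at 3.85 to 4.61, while Usp2 was at 5.31 to 6.13. Arntl was at 2.14 to 3.39. The pseudogene Gm3362 ran from 0 to 5.83 among these tumors, with an SD of 2.54 within the WT tumors. Npas2, Cyp2b9, Cyp2a4, Sema5b and Moxd1 were not listed in that table.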

How the data were processed

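Liver RNA was sequenced in 6 libraries. The authors deposited normalized log2 CPM values, made with Trim Galore, HISAT2, SAMtools and featureCounts on build GRCm38 (mm10), per the submitters' processing notes. Strand, counting mode and normalization method were not given in the sources used here. Deposited values are floored at 0, and every gene reaches at least 1 in some library. The labels name the ad-ARID1A columns after ad-Cre, so columns were matched by virus in the title and number. All 14074 genes were fitted at once with limma 3.58.1 in R 4.3.3 (eBayes with trend, Benjamini-Hochberg, two-sided), after tests on simulated data. Differences of floored log2 values understate change near the floor. Count tests were not run, because higher values are too coarsely rounded. Lists (39) and members were chosen with earlier results of these data known. The text names the 15 largest rises and all falls past the threshold, clock genes that passed or did not overlap, genes of the study and likeness to Dbp and Arntl. From each other list the rule took up to 8 passing or 3 nearest members, of which some are printed, and further members were chosen after their values were seen. There were 15 alternative settings. Positions come from a GRCm38 annotation. Some list members are not reported here.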

Additional observations from a re-analysis of the deposited data

How the results depend on the processing

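The main fit made 45 calls, 39 higher and 6 lower. Fits of genes whose mean log2 CPM reached 2, or above the floor in all libraries, gave 34 and 36 calls. All of these were shared with the main fit. On log2(CPM + 1) there were 30 (25 higher), 29 of them shared. Median-centred libraries gave 33 (25 higher, 30 shared) and quantile normalization 22 (17 higher, 21 shared). Array weights gave 57, with all 45 shared. A robust trend gave 96 (77 higher and 19 lower), with 39 shared. With no trend 1 gene passed (1 higher, Gm3362, and 0 lower). Leaving out each library gave 0 to 19 calls, 0 to 14 higher and 0 to 5 lower. The fewer samples alone lower what can pass, and other causes were not tested. Replicate numbers did not pair the libraries (correlations of deviations 0.01, 0.05 and -0.06), and a replicate block gave 59 calls, 47 higher and 12 lower, 32 of them shared with the fit without it. Among single genes 1569 values kept their side of the threshold and direction, 224 lost the threshold, 13 gained it and 19 changed sign, all in genes that never passed. Over the fits without a library these ran from -0.81 to 0.26 for Lcn2, -0.56 to 0.02 for Il1r1, -0.03 to 0.05 for Eif2s3y, -0.27 to 0.21 for Il2rb, -0.23 to 0.19 for Klrk1, -0.44 to 0.15 for Hbb-bt and -0.09 to 0.14 for Cela1. Centred and quantile-normalized values were -0.06 and -0.06 for Eif2s3y, -0.08 and -0.19 for Klrk1 and -0.04 and -0.05 for Cela1, and Klrk1 was 0 with array weights. List medians moved beyond their spread in 50 values and stayed within it in 535. At this depth (8.72 to 10.6 M reads) genes near the floor are the least precise.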
